A study of Homo sapiens with 6 samples.

Results

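The DHX9 peaks on the transcripts of UBE2D2 and SAE1 are described here, as a pair of genes of the ubiquitin and SUMO pathways. The members are the plus-strand peaks that overlap either gene in the human assembly hg19: UBE2D2 on chromosome 5 from 138906016 to 139008018, and SAE1 on chromosome 19 from 47634085 to 47713886. They number 195 of the 28449 peaks in the series. The antibody labelled DHX9-Rb gave 150 of them, out of 21618 in its list, and the antibody labelled DHX9-mAb gave 45, out of 6831. The genes were selected on the number of peaks that these same lists hold there, so those numbers are given as values with no test.

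The peaks come from FLASH, in which ultraviolet light links a protein to the RNA it touches and the protein is then pulled down with an antibody and its RNA sequenced. The cells were HEK293, an established line of human embryonic kidney origin, untreated apart from the irradiation. Each of the 2 DHX9 antibodies had 2 biological replicates, and each list stands for both of its replicates. A control immunoglobulin, IgG-Rb, was also used, and its samples were not analysed here. The lists give positions and strands and hold no measure of a peak's height, so the depth behind a peak is unknown and no replicate error can stand beside a peak number. Material of the control and of the DHX9 pulldowns was mixed before cDNA synthesis, so the lists do not come from fully separate libraries.

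DHX9, or RNA helicase A, opens RNA duplexes in the nucleus, and its known RNA partners include transcripts in which inverted Alu repeats can pair. UBE2D2 is a ubiquitin-conjugating (E2) enzyme: it takes activated ubiquitin from the E1 enzyme and, with many different E3 ligases, passes it to target proteins. SAE1 is a subunit of the E1 enzyme of SUMO, a small protein related to ubiquitin. It works as a dimer with UBA2 and activates SUMO. The same chain of activation, conjugation and ligation thus serves both modifiers, with UBE2D2 at its second step for ubiquitin and SAE1 at its first step for SUMO.

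Both genes lie on the plus strand, and both stood alone among plus-strand peaks. For UBE2D2 (gene ENSG00000131508.15), no peak of either antibody lay on the plus strand within 100 kb before or after the gene. The nearest plus-strand DHX9-Rb peak before it ended at 138699103, 207 kb upstream, and the nearest after it started at 139784850, 777 kb downstream. For SAE1 (gene ENSG00000142230.11), the nearest upstream DHX9-Rb peak ended at 47538204, 95.9 kb away, and the nearest downstream peak started at 47855850, 142 kb away. Within 100 kb upstream of SAE1 there were 2 DHX9-Rb peaks and 1 DHX9-mAb peak on the plus strand, and none downstream. Every member lay wholly inside its gene. In GENCODE 29, read for gene names and neighbours only because it is on another assembly, 0 other plus-strand genes overlap either gene. On the minus strand it has RF00019 and AC010378.1 overlapping UBE2D2, and ZC3H4 overlapping SAE1. Exons, introns and repeats within the genes were not assigned, and no peak sequence was read, because neither the sequence nor an annotation of hg19 was used here.

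UBE2D2 and SAE1 carried almost the same number of peaks for their length. UBE2D2 had 83 DHX9-Rb peaks and 24 DHX9-mAb peaks over 102.0 kb. SAE1 had 67 and 21 over 79.8 kb. Per 10 kb of gene, DHX9-Rb gave 8.14 peaks in UBE2D2 and 8.4 in SAE1, and DHX9-mAb gave 2.35 and 2.63. There were 3.46 DHX9-Rb peaks for each DHX9-mAb peak in UBE2D2 and 3.19 in SAE1, against 3.16 over the whole series. The share of DHX9-mAb peaks among the peaks of both lists was 22.4% in UBE2D2 and 23.9% in SAE1.

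The genes differed in how much of their length held peaks. In UBE2D2 all peaks lay within 60.6 kb, or 59.4% of the gene, because the first 36.4 kb held none. In SAE1 the peaks spread over 67.5 kb, or 84.5% of the gene. Counted over these occupied stretches, the DHX9-Rb density was 13.7 peaks per 10 kb in UBE2D2 and 9.93 in SAE1, and the DHX9-mAb density 3.96 and 3.11. These stretches run from the first to the last peak of either antibody, and that of SAE1 includes a DHX9-Rb gap of 17.4 kb. Its lower density therefore does not mean looser peaks throughout. The median gap between neighbouring DHX9-Rb peaks was 182 nt in SAE1 and 217 nt in UBE2D2. Measured from the first to the last DHX9-mAb peak, the DHX9-mAb density was 5.76 in UBE2D2 and 5.2 in SAE1. DHX9-Rb peaks covered 21137 nt of UBE2D2 and 15299 nt of SAE1, which is 34.9% and 22.7% of the occupied stretches. DHX9-mAb peaks covered 5768 nt and 3709 nt, or 9.52% and 5.5%.

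**Figure D1:**
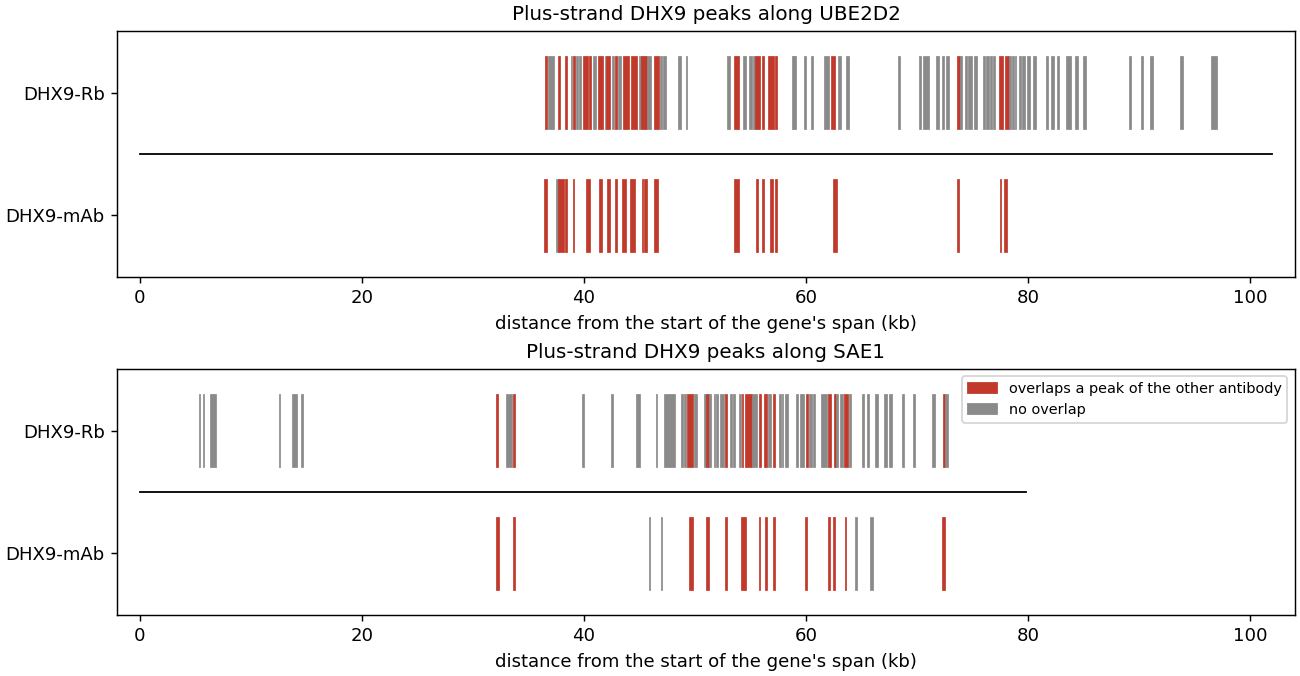
Plus-strand peaks along UBE2D2 (top) and SAE1 (bottom), with DHX9-Rb peaks in the upper row of each panel, DHX9-mAb peaks in the lower row and the black line marking the gene's span; the horizontal axis is the distance from the span's start in kb, and red peaks overlap a peak of the other antibody. The first 36.4 kb of UBE2D2 are empty and its DHX9-mAb peaks gather at the upstream end of the occupied stretch, while most SAE1 peaks of both antibodies lie in a block that starts 44.7 kb into the gene.

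The first and last peaks show the different layouts. In UBE2D2 the antibodies began at the same place: the first DHX9-mAb peak ran from 138942452 to 138942685 and the first DHX9-Rb peak from 138942530 to 138942683. They ended far apart, since the last DHX9-mAb peak (138983893 to 138984103) ended 23.9 kb before the end of the gene and the last DHX9-Rb peak (139002881 to 139003019) 5.0 kb before it. In SAE1 the reverse held. The first DHX9-Rb peak (47639406 to 47639492) started 5.32 kb into the gene and the first DHX9-mAb peak (47666194 to 47666425) 32.1 kb into it. The last peaks lay close together there, DHX9-mAb from 47706342 to 47706592 and DHX9-Rb from 47706629 to 47706860, 7.29 and 7.03 kb before the end of the gene.

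Divided into 10 equal segments from the gene's start, UBE2D2 had no peak in segments 1 to 3. Its DHX9-Rb peaks then numbered 11, 18, 14, 7, 21, 9 and 3 in segments 4 to 10, with a dip between a pair of maxima. Its DHX9-mAb peaks numbered 6, 9, 5, 1, 3, 0 and 0 there. The second DHX9-Rb maximum, segment 8 with 21 peaks, was the fullest of the gene for that antibody, while DHX9-mAb had 3 of its 24 peaks in it. SAE1 had 4, 3, 0, 0, 3, 7, 20, 19, 9 and 2 DHX9-Rb peaks in its segments, with 1 broad maximum. Its DHX9-mAb peaks numbered 0, 0, 0, 0, 2, 2, 8, 6, 2 and 1, with the maximum in the same segments 7 and 8. The median DHX9-Rb midpoint lay at 58.8% of the UBE2D2 span and at 68.0% of the SAE1 span. For DHX9-mAb the medians were 44.0% and 68.3%, so the antibodies' medians were 15.1 kb apart in UBE2D2 and 0.253 kb apart in SAE1.

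**Figure D2:**
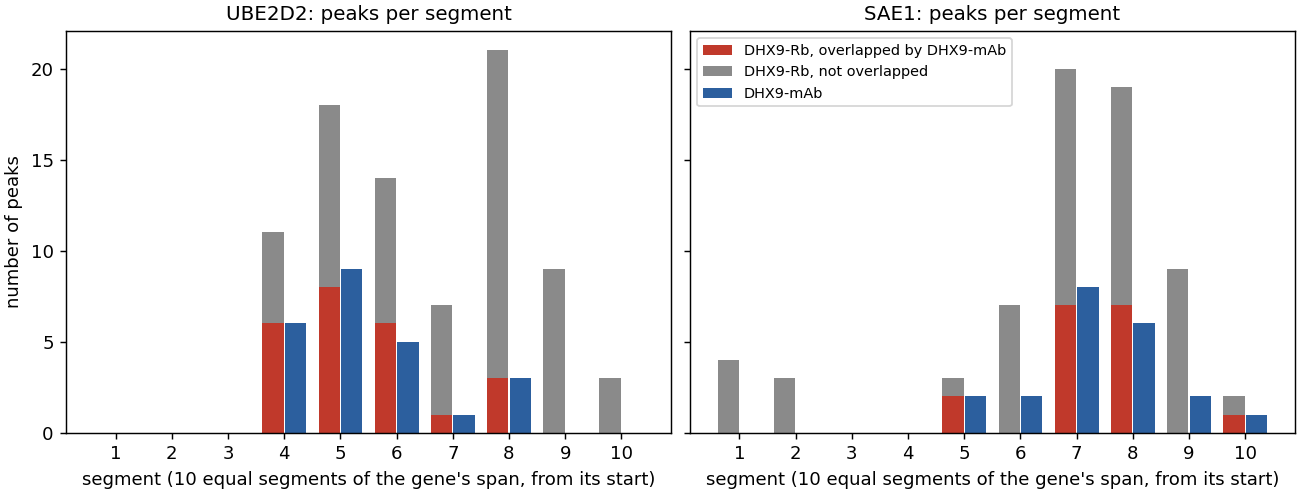
Number of peaks (vertical axis) in each of 10 equal segments of UBE2D2 (left) and SAE1 (right), counted by midpoint from the gene's start. Each left bar is DHX9-Rb, red where a DHX9-mAb peak overlaps and grey where none does, and each right bar in blue is DHX9-mAb; in UBE2D2 the red part is tallest in segments 4 to 6 and the grey part in segment 8, and in SAE1 all bars peak in segments 7 and 8.

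Before the midpoint of the span lay 29 of 83 DHX9-Rb peaks in UBE2D2 (34.9%, 95% Wilson interval 25.6 to 45.7) and 10 of 67 in SAE1 (14.9%, 8.31 to 25.3). The difference was 20 percentage points, and 15.2 with neighbouring peaks less than 50 nt apart merged into 1. For DHX9-mAb, 15 of 24 peaks in UBE2D2 lay before the midpoint (62.5%, 42.7 to 78.8) and 2 of 21 in SAE1 (9.52%, 2.65 to 28.9). This difference was 53.0 points. The midpoint depends on where the span is taken to begin. Measured instead from the first to the last peak of each gene, the differences were 41.7 points for DHX9-Rb and 78.0 for DHX9-mAb. Peaks of 1 gene are not independent of each other, so these shares describe the lists and carry no p-value, and the intervals take peaks as independent.

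The DHX9-mAb partners of UBE2D2 DHX9-Rb peaks were spread unevenly in the list. This is largely the same result as the placement of DHX9-mAb peaks above, because 23 of the 24 overlapped a DHX9-Rb peak. Upstream of the midpoint, 14 of 29 had a DHX9-mAb partner (48.3%, 31.4 to 65.6), and downstream of it 10 of 54 did (18.5%, 10.4 to 30.8). Over the whole DHX9-Rb list the share was 28.6%. That is below the upstream interval and inside the downstream one, and both intervals take peaks as independent. The difference was 29.8 points, and 16.5 points where an overlap had to span at least 50% of both peaks. The last 19 DHX9-Rb peaks of UBE2D2, from 138984267 to 139003019, had no DHX9-mAb partner at all, over 18.8 kb. In SAE1, 2 of 10 DHX9-Rb peaks upstream of the midpoint and 15 of 57 downstream of it had a partner (20% and 26.3%). That difference of -6.32 points rests on 10 upstream peaks and changed sign under other peak rules. Whether the pattern along UBE2D2 differs from that along SAE1 was not tested.

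The peaks lay in blocks separated by empty stretches. With peaks of either antibody joined where less than 1 kb separated them, UBE2D2 held 9 blocks and SAE1 8. The number depends on the distance allowed: joined below 500 nt there were 18 and 20 blocks, and below 2 kb 6 and 6. UBE2D2 had a pair of large blocks with many DHX9-Rb peaks and very different DHX9-mAb marking. The first ran from 138942452 to 138953442 (11 kb) with 27 DHX9-Rb peaks, of which 14 overlapped DHX9-mAb (51.9%), and 15 DHX9-mAb peaks. The sixth ran from 138976195 to 138991205 (15.0 kb) with 29 DHX9-Rb peaks, of which 3 overlapped DHX9-mAb (10.3%), and 3 DHX9-mAb peaks. Over the whole DHX9-Rb list the share was 28.6%. DHX9-Rb peaks were somewhat denser in the first of these (2.46 per kb against 1.93), covered more of it (66.9% against 46.8%) and had a median width of 237 nt against 215 nt. DHX9-mAb covered 33.1% of the first block and 3.38% of the sixth. Between them, a block from 138958929 to 138963444 held 10 DHX9-Rb peaks, 6 of them shared, and 5 DHX9-mAb peaks, and a block from 138964734 to 138969930 held 8, 1 shared, and 1. The blocks were singled out after their values had been seen, so no test is attached. Their contrast is largely the uneven placement of DHX9-mAb peaks already described.

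SAE1 had 1 dominant block. It ran from 47678747 to 47703936 (25.2 kb). DHX9-Rb had 52 of its 67 SAE1 peaks in it and DHX9-mAb had 18 of its 21. Within it 14 of the 52 had a DHX9-mAb partner (26.9%), against 28.6% over the whole DHX9-Rb list. DHX9-Rb covered 47.9% of this block, close to the 46.8% of the sixth block of UBE2D2, and DHX9-mAb covered 12.3%. A small block further upstream, from 47666194 to 47667889, had 3 peaks of DHX9-Rb and 2 of DHX9-mAb, and 2 of each were shared. The 7 DHX9-Rb peaks before it, in 3 blocks between 47639406 and 47648791, had no DHX9-mAb peak among them. In each gene 5 blocks had no DHX9-mAb peak, and these blocks together held 9 DHX9-Rb peaks in UBE2D2 and 9 in SAE1. No block lacked DHX9-Rb.

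Neighbouring DHX9-Rb peaks lay close together in both genes. The median gap between the end of a peak and the start of the next was 217 nt in UBE2D2 (interquartile range 93.0 to 424) and 182 nt in SAE1 (72.5 to 559). Such spacing is not particular to these genes. Among the 101 same-strand runs of at least 30 DHX9-Rb peaks described below, the median of the runs' median gaps was 215 nt. Gaps under 500 nt made up 65 of 82 in UBE2D2 (79.3%) and 45 of 66 in SAE1 (68.2%). The tail differed: the longest DHX9-Rb gap was 4.38 kb in UBE2D2, from 138969930 to 138974307, and 17.4 kb in SAE1, from 47648791 to 47666217. SAE1 had 3 DHX9-Rb gaps over 5 kb and UBE2D2 had 0. DHX9-mAb peaks were further apart, with a median gap of 548 nt in UBE2D2 and 1124 nt in SAE1, and with longest gaps of 10.9 kb (138968774 to 138979628) and 12.0 kb (47667889 to 47679926). In 3 places neighbours of the same list overlapped each other, 1 in the DHX9-Rb list in UBE2D2 and 1 in the DHX9-mAb list in each gene. These neighbours may not be separate sites, which positions alone cannot decide.

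Peaks were wider in UBE2D2 than in SAE1 at the median. DHX9-Rb peaks had a median width of 225 nt in UBE2D2 (range 108 to 581) and 193 nt in SAE1 (74 to 609), against 201 nt over the whole list. Among the 101 same-strand runs of at least 30 DHX9-Rb peaks described below, the median of the runs' median widths was 224 nt. UBE2D2 was thus close to other crowded places in width, and SAE1 was narrower. DHX9-mAb peaks had a median of 214 nt in UBE2D2 (85 to 482) and 178 nt in SAE1 (99 to 251), against 191 nt. The widest SAE1 peak, DHX9-Rb from 47688580 to 47689188, was 609 nt wide, and the widest of UBE2D2, DHX9-Rb from 138949517 to 138950097, was 581 nt wide. Both overlapped a DHX9-mAb peak. The widest DHX9-mAb peak of UBE2D2 ran from 138943716 to 138944197 and that of SAE1 was its last, and both overlapped a DHX9-Rb peak. In UBE2D2 the DHX9-Rb peaks with a partner had a median of 240 nt and those without 215 nt. In SAE1 these medians were 186 nt and 194 nt, the other order. Over the whole DHX9-Rb list they were 243 nt and 190 nt. Widths were compared without a test, because the peaks of a gene are not replicates.

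Most DHX9-mAb peaks of both genes overlapped a DHX9-Rb peak, and most DHX9-Rb peaks had no DHX9-mAb partner. A peak counted as found by both antibodies where it had 1 nt or more in common with a same-strand peak of the other antibody. Of the DHX9-Rb peaks, 24 of 83 in UBE2D2 (28.9%, Wilson interval 20.3 to 39.4) and 17 of 67 in SAE1 (25.4%, 16.5 to 36.9) met this, against 28.6% of all DHX9-Rb peaks. Of the DHX9-mAb peaks, 23 of 24 in UBE2D2 (95.8%, 79.8 to 99.3) and 17 of 21 in SAE1 (81.0%, 60.0 to 92.3) met it, against 88.0% of all DHX9-mAb peaks. With overlaps of at least 50% of both peaks, the DHX9-Rb shares were 16.9% and 16.4% and the DHX9-mAb shares 58.3% and 52.4%. All 4 intervals at the 1 nt rule include the share of the whole list. Between the genes, the shares differed by 3.54 points for DHX9-Rb and by 14.9 points for DHX9-mAb. The intervals of the genes overlapped for each antibody. They take peaks as independent and are wide for DHX9-mAb, so neither point shows that the shares are alike. In nucleotides, 81.1% of the UBE2D2 sequence under DHX9-mAb peaks was also under DHX9-Rb peaks, 64.5% of that of SAE1 and 73.8% of that of the whole series.

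The 5 DHX9-mAb peaks without a partner lay 38 to 523 nt from the nearest DHX9-Rb peak. All of them were in blocks crowded with DHX9-Rb peaks, where any position lies close to one, so their nearness is no separate result. In UBE2D2 the 1 such peak, from 138943541 to 138943664, lay 38 nt from the nearest DHX9-Rb peak. In SAE1 the peak at 47699867 to 47700108 lay 90 nt away, that at 47681057 to 47681155 lay 124 nt away, that at 47698489 to 47698707 lay 327 nt away and that at 47679926 to 47680074 lay 523 nt away. All 4 of the SAE1 peaks were inside the dominant block, 2 towards its upstream end and 2 towards its downstream end. The DHX9-Rb peaks without a partner were further from the other list in UBE2D2, where 29 of 59 lay within 1 kb of a DHX9-mAb peak, at a median distance of 1.02 kb. In SAE1, 37 of 50 did, at a median distance of 0.479 kb.

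The overlapping peaks were also compared by their centres, whose distance is bounded by the overlap itself. UBE2D2 had 26 overlapping pairs and SAE1 had 19, more than the peaks with a partner because some peaks overlapped more than 1 of the other list. The median distance between the midpoints of a pair was 30 nt in UBE2D2 and 51.5 nt in SAE1. It was at most 50 nt in 16 of 26 UBE2D2 pairs and in 9 of 19 SAE1 pairs. The largest distances were 251 nt and 257.5 nt. The best matched pair of UBE2D2 differed by 1 nt at the midpoint, DHX9-mAb from 138944349 to 138944464 and DHX9-Rb from 138944348 to 138944467. That of SAE1 differed by 7 nt, DHX9-mAb from 47690435 to 47690600 and DHX9-Rb from 47690474 to 47690575. In 12 UBE2D2 pairs the DHX9-mAb peak lay wholly inside the DHX9-Rb peak, and in 3 the DHX9-Rb peak lay inside the other. In SAE1 these numbers were 5 and 4. The DHX9-Rb midpoint was downstream of the DHX9-mAb midpoint in 18 of 26 and 12 of 19 pairs. No such values of the pairs of the whole series are given here, so none of these traits can be called particular to these genes.

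**Figure D3:**
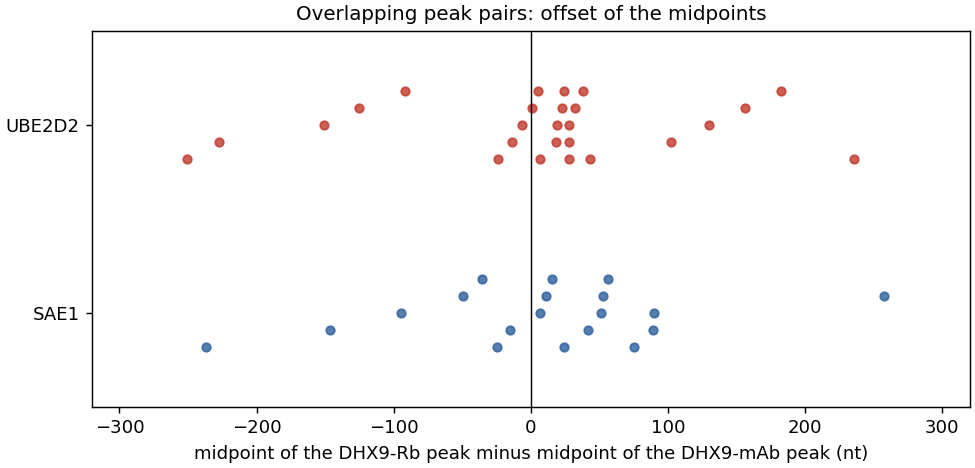
Each point is 1 overlapping pair of peaks, placed by the DHX9-Rb midpoint minus the DHX9-mAb midpoint in nt (horizontal axis, positive values are downstream), for UBE2D2 (red, 26 pairs) and SAE1 (blue, 19 pairs); vertical scatter within a gene only separates the points. UBE2D2 pairs gather just to the right of 0, with 16 of 26 within 50 nt, and 9 of 19 SAE1 pairs lie that close.

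The minus strand was empty inside SAE1 for both antibodies. Inside UBE2D2 it held 3 DHX9-Rb peaks, at 138911292 to 138911441, 138912722 to 138912915 and 138915376 to 138915584, and 1 DHX9-mAb peak at 138914577 to 138914777. All 4 lay between 5.28 and 9.57 kb into the gene, in the stretch with no plus-strand peak, and at least 26.9 kb from the nearest plus-strand DHX9-Rb peak. None overlapped a peak of the other antibody. Minus-strand genes overlap both genes, as named above. Whether these peaks lie in such a gene was not tested, since no hg19 annotation was used.

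Set beside other crowded places, both genes ranked high in DHX9-Rb peaks and lay below the median in the share that DHX9-mAb also marked. All DHX9-Rb peaks were joined into runs on 1 strand wherever neighbours lay less than 20 kb apart, which gave 4247 runs. The peaks of each gene formed 1 run, which ranked 7 for UBE2D2 and 14 for SAE1 by DHX9-Rb peaks, and 18 and 26 by DHX9-mAb peaks. Among the 101 runs with at least 30 DHX9-Rb peaks, the median share found by both antibodies was 38.5% (interquartile range 26.0 to 45.9, whole range 8.82 to 85.7). UBE2D2, at 28.9%, had 68 of these runs above it and SAE1, at 25.4%, had 77. UBE2D2 was inside the interquartile range and SAE1 just below it. Over all DHX9-Rb peaks the share was 28.6%, so both genes were near the share of the whole list. Their DHX9-Rb densities of 13.7 and 9.93 per 10 kb of run compare with a median of 9.86 (interquartile range 7.29 to 13.2). The genes were proposed for their peak numbers, so their ranks are a description.

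The runs nearest to UBE2D2 in number of DHX9-Rb peaks had larger shares found by both antibodies. A minus-strand run on chromosome 17 from 1244385 to 1303501 had 84 DHX9-Rb and 37 DHX9-mAb peaks, with 40.5% of the former shared. One on chromosome 12, minus strand, from 57724816 to 57823954 had 81 and 31, with 42.0% shared. A plus-strand run on chromosome 1 from 151171871 to 151233620 had 78 and 36, with 46.2% shared. Around SAE1 the shares lay on either side of its 25.4%. On chromosome 1, minus strand, a run from 1735301 to 1820461 had 66 and 23 peaks with 39.4% shared. On chromosome 19, plus strand, a run from 34677440 to 34776903 had 64 and 17 with 25.0% shared. The last, on chromosome 1, minus strand, from 153799434 to 153890657, had 70 and 15 with 18.6% shared. A further run tied with these last 2, with 64 DHX9-Rb peaks of which 43.8% were shared. It was passed over because ties went to the run nearer in DHX9-mAb peaks. Likeness here means only a similar number of DHX9-Rb peaks in 1 run.

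**Figure D4:**
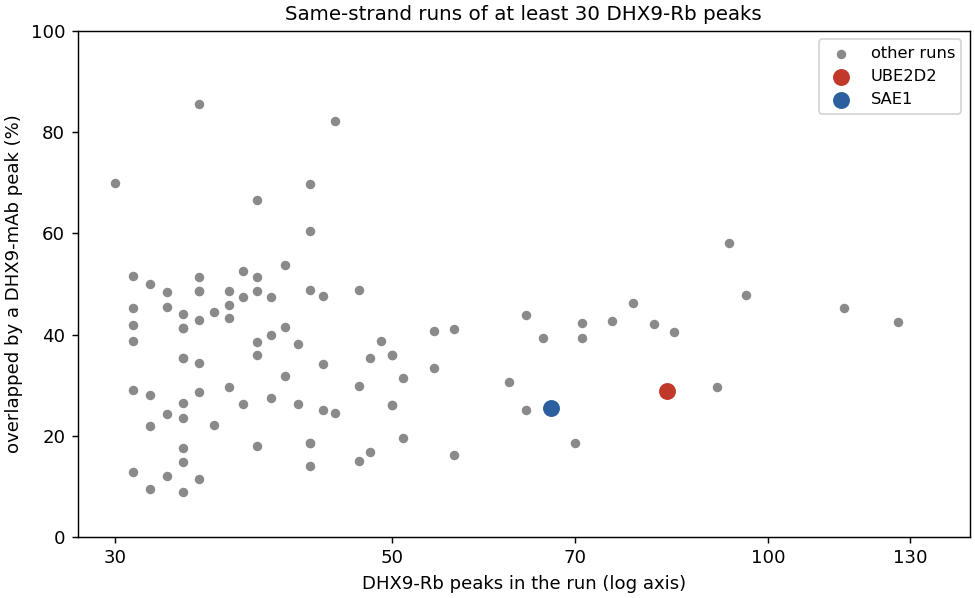
Each point is 1 same-strand run of at least 30 DHX9-Rb peaks (101 runs); the horizontal axis is its number of DHX9-Rb peaks on a log scale and the vertical axis the percentage of them overlapped by a DHX9-mAb peak. UBE2D2 (red, 83 peaks, 28.9%) and SAE1 (blue, 67 peaks, 25.4%) lie below the runs' median share of 38.5% and near the 28.6% of all DHX9-Rb peaks.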

How the data were processed

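Reads were aligned with Bowtie2 2.2.6 to hg19, per the submitters' processing notes, and the deposited peak regions were called with PEAKachu, per the files' second column. Its control, threshold, version and handling of replicates and repeats are, in the sources used here, not given. How reads from repeats were placed could change which peaks were called. The deposited positions, counted from 1, were used as they stand; the score column held 0 numbers. Each list stands for 2 replicates, combined in a way that is not given.

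Peaks were assigned to a gene by any overlap with its span on the plus strand. The genes, spans, comparisons and alternatives were chosen with earlier results of these data known. Shares carry 95% Wilson intervals, which cover counting error only. The 7 planned Fisher's exact tests, adjusted together at 0.05, were computed, but they treat peaks of 1 transcript as independent and are not used as support. The peaks named singly are the first, last, widest and closest matched of each gene and those beside the longest gap. Other peaks and blocks were named after their values had been seen. The overlap rule was tested on simulated peaks. SciPy 1.17.1 and pandas 2.3.3 under Python 3.11.15 gave the values, and matplotlib 3.10.9 the plots.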

Additional observations from a re-analysis of the deposited data

How the results depend on the processing

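With overlaps of at least 50% of both peaks, the shares found by both antibodies were 16.9% (DHX9-Rb) and 58.3% (DHX9-mAb) in UBE2D2 and 16.4% and 52.4% in SAE1, the difference within UBE2D2 dropped to 16.5 points and that within SAE1 turned to 4.21 points. Leaving out peaks under 150 nt left 12 DHX9-mAb peaks in SAE1, put the UBE2D2 DHX9-mAb share at 100%, and turned the differences in DHX9-mAb against DHX9-Rb numbers (2.42 points) and within SAE1 (3.33 points). Merging peaks less than 50 nt apart lowered the DHX9-Rb difference in position to 15.2 points. The DHX9-mAb difference in position kept its direction under the 3 alternatives that could change it, at 48.6 points with merging, 49.6 without narrow peaks and 78.0 measured from the first to the last peak. Merging and the width rule change which peaks enter; the stricter overlap rule keeps the same peaks and counts fewer as shared. No paired analysis was possible because each antibody has a single list for both replicates, and for the same reason no replicate could be left out. Read depth per peak is unknown.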
